A study of Mus musculus with 36 samples.

Results

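The genes described here are 10 genes of the Notch pathway and its output in the intestinal epithelium: the receptors Notch1, Notch2 and Notch3, the ligands Dll1, Dll4, Jag1 and Jag2, the target genes Hes1 and Hey1, and Atoh1. They were chosen by name, as the core receptors, ligands and readouts of the pathway, out of 52636 genes listed in the count tables. Bulk RNA-seq had been done on 36 libraries of mouse jejunal organoids, which are cultures of intestinal epithelium grown from crypts, from the C57BL/6 strain, with 6 libraries in each of 6 conditions. Organoids were grown in complete media (IntestiCult) with a control IgG, in quiescent conditioned media (QCM) or senescent conditioned media (SCM) with IgG, in SCM with an antibody against Ptk7 (anti-Ptk7), in complete media with Wnt5a and IgG, or with Wnt5a and anti-Ptk7, for 2 days. QCM and SCM are media taken from serum-deprived and from senescent mouse embryonic fibroblasts and mixed with IntestiCult, so both differ from complete media in more than the state of the fibroblasts. Wnt5a is a ligand of noncanonical Wnt signaling, and Ptk7 is a receptor-like membrane protein with an inactive kinase domain that acts in Wnt signaling. No complete media + anti-Ptk7 group was analysed here, so an effect of the antibody without SCM or Wnt5a cannot be told apart from its effect with them. The age of the mice behind these libraries was not given in the sources used here, and the comparisons below ask whether the media and the antibody moved Notch pathway transcripts.

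Notch receptors are single-pass membrane proteins that are activated by Delta-like or Jagged ligands on a neighbouring cell. Ligand binding exposes the receptor to cleavage by Adam10 and then by gamma-secretase, and the released intracellular domain joins the DNA-binding protein Rbpj and co-activators of the Maml family to switch on targets such as Hes1. In intestinal crypts, Notch activity keeps stem and progenitor cells from becoming secretory cells, because Hes1 represses Atoh1, the transcription factor that commits cells to the goblet, Paneth and enteroendocrine fates. Cells that escape Notch activity express Atoh1 and the ligands Dll1 and Dll4, and thereby send the Notch signal to their neighbours.

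Total counts per library ran from 9581589 to 21029769, and levels are given as CPM, counts relative to the total of the library, after TMM scaling, which corrects for differences in library composition. Each fold change is the ratio of the fitted condition levels from edgeR's quasi-likelihood test over all 36 libraries and 15497 genes, with Benjamini-Hochberg adjusted p-values over all of these genes, and calls required both an adjusted p below 0.05 and a change of more than 1.5-fold. The following 3 libraries were least like the others across genes: SCM + IgG replicate 1, Wnt5a + IgG replicate 1 and Wnt5a + anti-Ptk7 replicate 1 had median correlations with the other libraries of at most 0.935, against 0.946 to 0.971 for the remaining libraries. Several of the members' fold changes against complete media, for SCM over QCM and for the antibody are also given without 1 or all of these libraries, and other tests include all libraries. The 6 epithelial markers Epcam, Cdh1, Krt8, Krt18, Krt20 and Vil1 summed to between 5585 and 23072 CPM in all libraries, whereas all 7 fibroblast markers were under 0.5 CPM on average (summed level of 0 to 1.32 CPM), as were all 5 endothelial markers (0 to 2.83 CPM), 4 of 5 pericyte and smooth muscle markers (0 to 6.43 CPM, nearly all of it Pdgfrb) and 4 of 5 blood markers (9.57 to 18.4 CPM, nearly all of it Csf1r, with Ptprc at most at a condition mean of 0.299 CPM). As these are bulk samples, fewer cells of a type and less RNA per cell cannot be told apart.

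Of the 10 genes, 9 were detected, at a mean of at least 0.5 CPM over the libraries, and these 9 all passed the filter on low counts. Levels of different genes were compared per kilobase (kb) of coding sequence. On this scale Hes1 was the most abundant member, at a mean of 109 CPM per kb, followed by the ligand Dll1 at 18.2, Atoh1 at 12.3, Jag1 at 9.59 and Dll4 at 5.48 CPM per kb. The receptor Notch1 lay at 5.11 CPM per kb, Jag2 at 4.32, Notch2 at 2.23 and Notch3 at 0.131 CPM per kb, and the order was identical per kb of exon. Hey1 was not detected. In the joint test of any difference among the 6 conditions, 4 of the 9 tested members passed an adjusted p of 0.05 (edgeR quasi-likelihood test), beside 39.5% of all genes tested. These were Notch2 (adjusted p = 0.00406), Dll1 (0.0259), Jag1 (0.000156) and Jag2 (0.0179). Jag2 did not pass with voom and limma (0.0782 with quantile normalization) or without SCM + IgG replicate 1 (0.0579) or 5 (0.0626). Notch1 (0.0657) and Atoh1 (0.056) did not pass by edgeR, although DESeq2 (0.0409 and 0.0327) and the fit with a replicate block (0.0488 and 0.0244) passed both, and voom with quantile normalization passed Notch1 (0.0311). Also not past the threshold were Hes1 (0.199), Dll4 (0.456) and Notch3 (0.961).

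**Figure D1:**
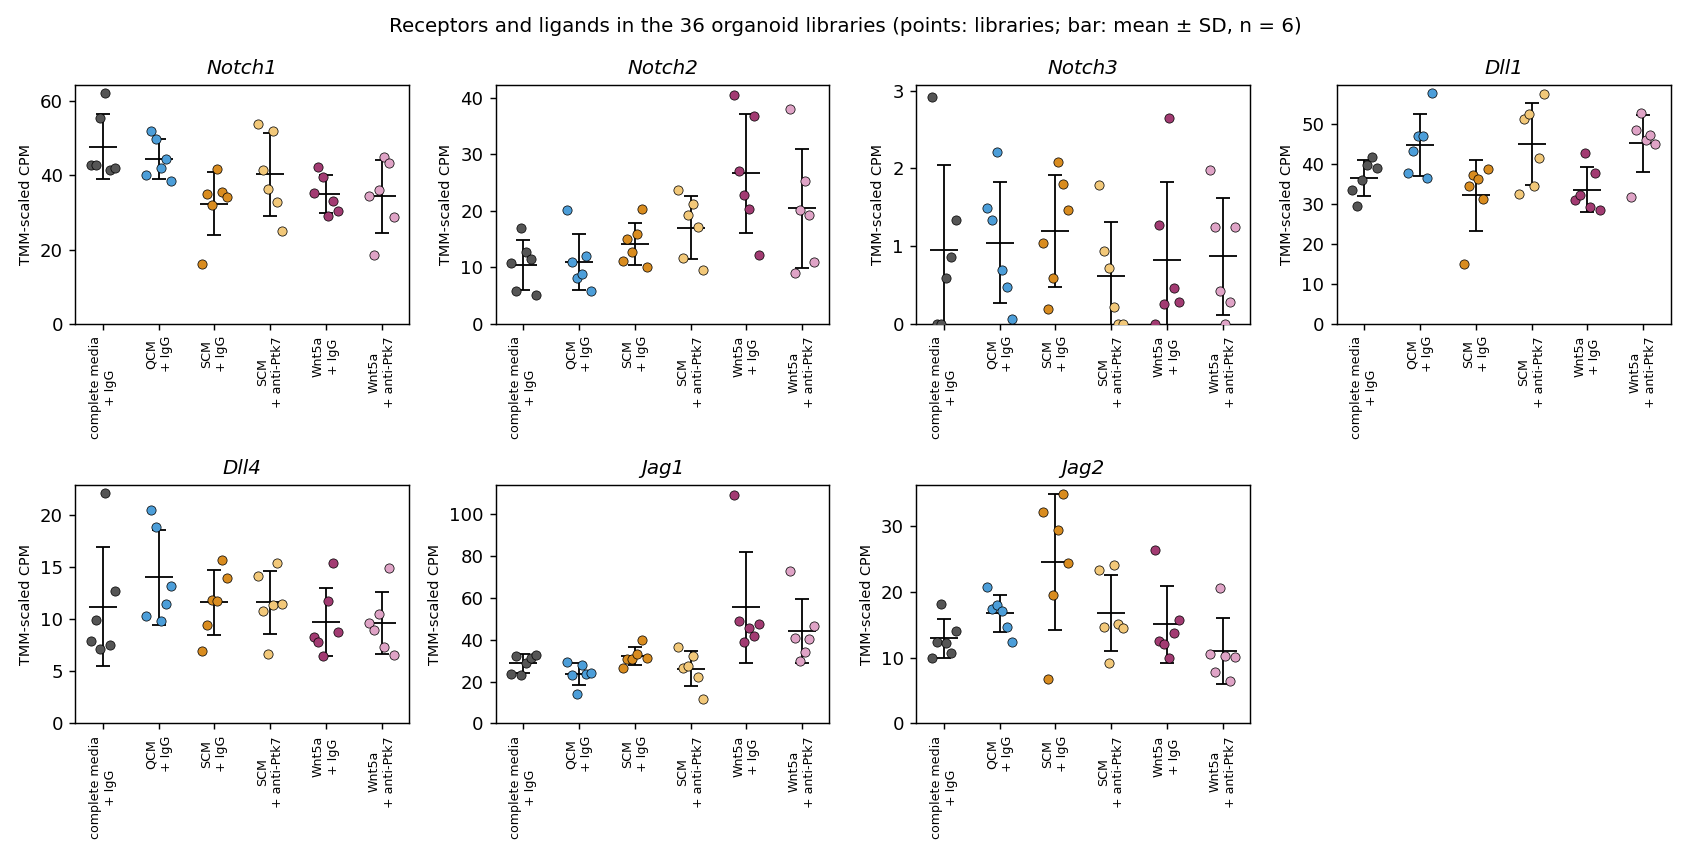
TMM-scaled CPM of the 3 receptors and 4 ligands in each of the 36 libraries (points), with the mean and SD of each condition (n = 6) as bars and a linear axis from 0 for each gene. Notch2 and Jag1 had their highest condition means in Wnt5a + IgG (26.6 and 55.4 CPM), and Jag2 in SCM + IgG (24.5 CPM).

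Among the receptors, Notch2 was the member with the largest fold change from complete media. It lay between 5.10 and 16.8 CPM in the 6 complete media libraries (median of 11.05), between 5.74 and 20.2 CPM in QCM (median of 9.84) and between 10.1 and 20.2 CPM in SCM + IgG (median of 13.8). In Wnt5a + IgG it lay between 12.2 and 40.5 CPM (median of 24.9), and in Wnt5a + anti-Ptk7 between 8.90 and 37.98 CPM (median of 19.7). Hence 5 of the 6 Wnt5a + IgG libraries were above all complete media libraries, and the sixth lay within their range. Notch2 rose 2.55-fold in Wnt5a + IgG over complete media (95% interval of 1.61 to 4.05, log2 fold change of 1.35 ± 0.33 (SE), adjusted p = 0.00275, edgeR quasi-likelihood test). It was 1.36-fold higher in SCM + IgG than in complete media, which did not pass (0.856 to 2.16, adjusted p = 0.438). Wnt5a + IgG replicate 1 held the highest Notch2 level, and without it the log2 fold change in Wnt5a was 1.19 (adjusted p = 0.0132). Leaving out the 3 libraries least like the others gave 1.19 (adjusted p = 0.00717).

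Notch1, the most abundant receptor and the main receptor of crypt stem cells together with Notch2, went the other way. It was between 41.4 and 62.1 CPM in complete media (median of 42.9), between 38.6 and 52.0 in QCM (median of 43.2), between 16.1 and 41.7 in SCM + IgG (median of 34.5) and between 29.2 and 42.1 CPM in Wnt5a + IgG (median of 34.2). The SCM + IgG libraries reached just into the range of complete media at their upper end. In SCM + IgG, Notch1 was at 0.677 times its level in complete media (0.519 to 0.884, log2 fold change of -0.56 ± 0.19, adjusted p = 0.0471, edgeR), a change under the 1.5-fold cutoff, so it was not called. The voom and limma test with quantile normalization, which is the test the study's methods name, put it past both limits (log2 fold change of -0.63). Without SCM + IgG replicate 1, which had the lowest Notch1 level, the log2 fold change was -0.43 (adjusted p = 0.139). Leaving out any one of 6 other libraries, complete media replicates 1, 2, 5 and 6 and SCM + IgG replicates 4 and 5, took Notch1 past both limits, with log2 fold changes of -0.65 to -0.59. In Wnt5a + IgG, Notch1 was at 0.731 times complete media (0.561 to 0.953, adjusted p = 0.0836, not called).

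As a description chosen after these values were seen, Notch1 over Notch2 per coding length had a median of 4.35 in complete media (3.20 to 8.01 over the libraries), 4.63 in QCM (1.93 to 6.53) and 2.37 in SCM + IgG (1.41 to 3.28). The median was 2.30 in SCM + anti-Ptk7, 1.46 in Wnt5a + IgG (0.844 to 2.42) and 1.88 in Wnt5a + anti-Ptk7. All Wnt5a + IgG libraries were thus below all complete media libraries in this ratio. Notch3, a receptor best known from vascular mural cells, was near the detection limit, between 0 and 2.92 CPM, with no count in 6 of 36 libraries, where a count of 0 allows up to 0.206 to 0.289 CPM (3 counts per library, counting error only). It did not pass in any comparison, and its intervals were wide: 1.26-fold in SCM over complete media with an interval of 0.345 to 4.58.

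Among the ligands, Jag1 rose in Wnt5a + IgG. Jagged ligands activate the same receptors as the Delta-like ligands. It was between 23.2 and 32.7 CPM in complete media (median of 30.04), between 14.2 and 29.2 in QCM (median of 23.97) and between 26.6 and 39.96 CPM in SCM + IgG (median of 31.2). In Wnt5a + IgG it was between 38.9 and 109 CPM (median of 46.6), so that all 6 libraries were above all 6 complete media libraries. The 2 groups also did not overlap for 11.7% of all genes tested. Jag1 rose 1.93-fold (1.40 to 2.67, log2 fold change of 0.95 ± 0.23, adjusted p = 0.0027, edgeR). The highest value belonged to Wnt5a + IgG replicate 1, and without it the log2 fold change was 0.64 (adjusted p = 0.0285). Jag1 was 1.12-fold higher in SCM + IgG than in complete media (0.81 to 1.55, adjusted p = 0.715, not called).

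Jag2 had another pattern. Its level in SCM + IgG was between 6.76 and 34.9 CPM (median of 26.9), against 10.02 to 18.2 CPM in complete media (median of 12.3), 12.4 to 20.7 in QCM (median of 17.2) and 10.01 to 26.3 in Wnt5a + IgG (median of 13.1). In SCM + IgG, 5 libraries were above all complete media libraries and replicate 2 was below them all. Jag2 rose 1.89-fold in SCM + IgG over complete media (1.27 to 2.82, log2 fold change of 0.92 ± 0.29, adjusted p = 0.0304, edgeR). This call was less stable than those of Notch2 and Jag1 in Wnt5a. It was lost on leaving out any one of 7 of the 12 libraries compared: complete media replicates 1, 2, 4 and 5 and SCM + IgG replicates 1, 4 and 5, with log2 fold changes of 0.78 to 0.89. It was also lost without the 3 libraries least like the others (0.83, adjusted p = 0.0596) and with voom and limma (0.66 with quantile normalization). Against QCM, the level in SCM + IgG was 1.47-fold higher (0.987 to 2.18, adjusted p = 0.317, not called).

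Per coding length, Jag1 over Jag2 had a median of 2.41 in complete media, 1.55 in QCM, 1.25 in SCM + IgG (0.846 to 4.67), 3.65 in Wnt5a + IgG (3.09 to 4.68) and 5.02 in Wnt5a + anti-Ptk7. All 6 Wnt5a + IgG libraries were above all complete media libraries, which reached 2.98. This ratio was likewise chosen after the levels were seen and was not tested.

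**Figure D2:**
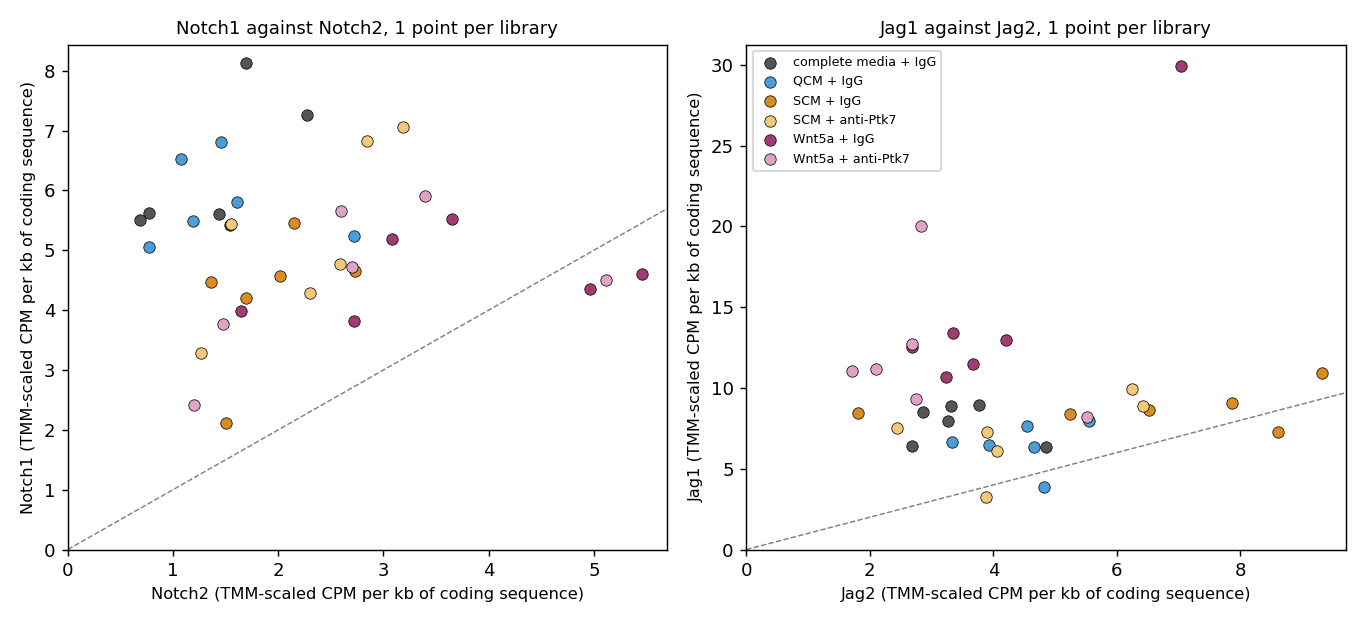
Left, Notch1 against Notch2, and right, Jag1 against Jag2, in TMM-scaled CPM per kb of coding sequence on linear axes, with 1 point per library colored by condition and a dashed line where both genes are equal. Many Wnt5a libraries lie toward the right of the left panel (Notch1 over Notch2 at a median of 1.46 in Wnt5a + IgG against 4.35 in complete media). Exceptions are Wnt5a + IgG replicate 6 and Wnt5a + anti-Ptk7 replicates 2 and 6, with Notch2 at 12.2, 8.90 and 10.9 CPM, within the range of complete media. In the right panel, 5 of 6 SCM + IgG libraries lie toward the right (Jag1 over Jag2 at a median of 1.25), with SCM + IgG replicate 2 at its left (4.67).

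The Delta-like ligands, which are made by secretory precursors and Paneth cells, were not called against complete media. Dll1 was between 29.4 and 41.6 CPM in complete media (median of 37.4), 36.3 and 57.6 in QCM (45.0), 14.8 and 38.8 in SCM + IgG (35.3) and 28.4 and 42.8 CPM in Wnt5a + IgG (31.6). It was 1.23-fold higher than complete media in QCM (0.968 to 1.55, adjusted p = 0.499), at 0.878 times complete media in SCM + IgG (0.692 to 1.11, adjusted p = 0.539) and at 0.917 times in Wnt5a + IgG (0.724 to 1.16, adjusted p = 0.662). Without SCM + IgG replicate 1, which had the lowest Dll1 level, the log2 fold change in SCM + IgG went from -0.19 to -0.05. Dll4 was between 6.41 and 22.03 CPM in all 36 libraries, with condition means of 9.60 to 13.98 CPM. It was at 1.24 times complete media in QCM (0.86 to 1.80), 1.03 times in SCM + IgG (0.709 to 1.49) and 0.866 times in Wnt5a + IgG (0.597 to 1.26), with adjusted p of 0.64 to 0.95. An antisense noncoding gene, A930024N18Rik, overlaps Dll1 on the other strand, and its mean level was 6.68 CPM. Whether counting used the strand was not given in the sources used here, so reads of the overlapping part could have been counted for either. The same holds for Gm14207 at Dll4 (2.50 CPM) and for 0610009E02Rik (3.03 CPM) and Gm13568 (0.906 CPM) at Notch1.

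The target genes gave no call. Hes1, a repressor that Notch switches on directly, was between 69.2 and 108 CPM in complete media (median of 98.3), 81.9 and 112 in QCM (89.6), 72.1 and 124 in SCM + IgG (91.8) and 66.8 and 95.7 CPM in Wnt5a + IgG (80.2). These ranges overlapped throughout. The fold change of Hes1 was 1.01 in QCM (0.856 to 1.20, adjusted p = 0.979), 1.01 in SCM + IgG (0.855 to 1.20, adjusted p = 0.953) and 0.867 in Wnt5a + IgG (0.733 to 1.03, adjusted p = 0.235) over complete media. Its intervals were the narrowest of the members, and none of these 3 intervals reached a 1.5-fold change in either direction.

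Hey1, another Notch target, had 32 counts in all, in 7 of 36 libraries. No count was found in any of the complete media, QCM or SCM + IgG libraries. Over the 29 libraries at 0, a count of 0 allows up to 0.141 to 0.313 CPM per library (3 counts, counting error only). Of the 32 counts, 29 were in Wnt5a libraries, 6 of which had a count, and the highest level was 0.6251 CPM, so that no fold change is given.

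Atoh1 was between 8.25 and 13.2 CPM in complete media (median of 9.53), 11.9 and 22.1 in QCM (13.8), 8.97 and 18.6 in SCM + IgG (13.4) and 6.07 and 14.4 CPM in Wnt5a + IgG (10.53). The QCM and SCM + IgG medians were above the highest complete media library, but the ranges overlapped. Atoh1 was 1.44-fold higher in QCM (1.07 to 1.93, adjusted p = 0.277), 1.28-fold higher in SCM + IgG (0.951 to 1.72, adjusted p = 0.312) and at 1.03 times complete media in Wnt5a + IgG (0.765 to 1.38, adjusted p = 0.924), and was called in none of them. Without SCM + IgG replicate 1, which had the highest Atoh1 level of that condition, the log2 fold change in SCM + IgG went from 0.35 to 0.22. Atoh1 was called in SCM + anti-Ptk7 over complete media (log2 fold change of 0.64 ± 0.21, adjusted p = 0.0385), a pair that differs in both medium and antibody.

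**Figure D3:**
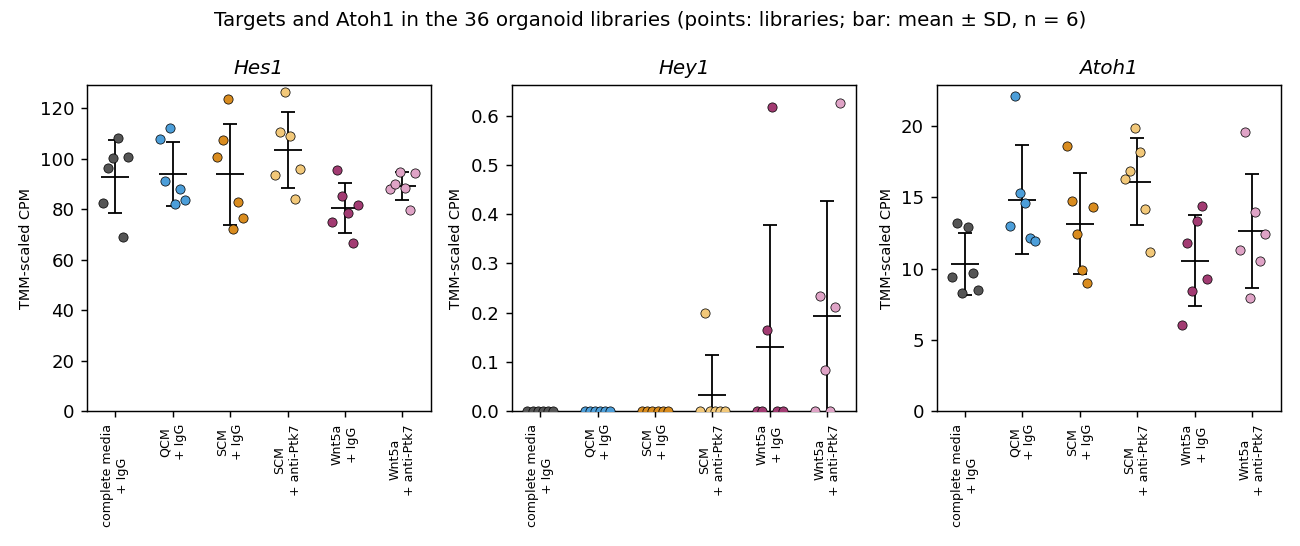
TMM-scaled CPM of Hes1, Hey1 and Atoh1 in each of the 36 libraries (points), with the mean and SD of each condition (n = 6) as bars and linear axes from 0. Hes1 overlaps across all conditions, Hey1 is at 0 in 29 libraries, and Atoh1 spans 6.07 to 22.1 CPM.

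Calls among the 9 tested members were counted for each comparison. In QCM over complete media no member was called by edgeR, with 1 at an unadjusted p under 0.05 (Atoh1) and none by DESeq2 or voom, beside 0.374% of all genes tested. In SCM + IgG over complete media, 1 member was called, Jag2, which was higher, while 6.08% of all genes were called, 4.96% as higher and 1.12% as lower. In Wnt5a + IgG over complete media, 2 members were called, Notch2 and Jag1, both higher, beside 10.2% of all genes, 8.29% as higher and 1.88% as lower. The 9 members' median log2 fold changes were 0.15 in QCM, 0.16 in SCM + IgG and -0.12 in Wnt5a + IgG, beside medians of 0.02, 0.01 and 0.01 over all genes. These 3 comparisons share the 6 complete media libraries. In SCM over QCM, both with IgG, no member was called by edgeR, with 2 at an unadjusted p under 0.05 (Notch1 and Dll1) and none by DESeq2 or voom, beside 0.903% of all genes. Dll1 was at 0.716 times its QCM level in SCM (0.565 to 0.907, adjusted p = 0.125) and Notch1 at 0.729 times (0.559 to 0.951, adjusted p = 0.2). Without SCM + IgG replicate 1, these log2 fold changes went from -0.48 to -0.32 for Dll1 and from -0.46 to -0.31 for Notch1. With the replicate numbers as a block, Dll1 had an adjusted p of 0.0176 and stayed under the fold cutoff.

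Several markers of epithelial cells moved with the same media. The summed level of 6 epithelial genes was 5585 to 7280 CPM in complete media, 6852 to 8487 in QCM, 8145 to 12139 in SCM + IgG and 9246 to 17124 CPM in Wnt5a + IgG. The summed level of 5 tuft cell markers was 6.00 to 8.64 CPM in complete media, 4.22 to 10.2 in QCM, 6.47 to 12.8 in SCM + IgG and 17.2 to 36.7 CPM in Wnt5a + IgG. Against complete media, 3 of 6 enterocyte markers were called higher in QCM, 4 in SCM + IgG and 3 in Wnt5a + IgG, to be read beside the shares of all genes given above. Of 6 Paneth cell markers, 1 was called higher in QCM and 2 each in SCM + IgG and Wnt5a + IgG. Their median log2 fold change was 0.21 in SCM + IgG, with 5 of 6 above 0, and -0.20 in Wnt5a + IgG, with 2 of 6 above 0. Moreover, of 6 stem cell markers 1 was lower in each of the last 2 conditions. The part of these cell types in the changes of Notch2, Jag1 and Jag2 was not tested.

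**Figure D4:**
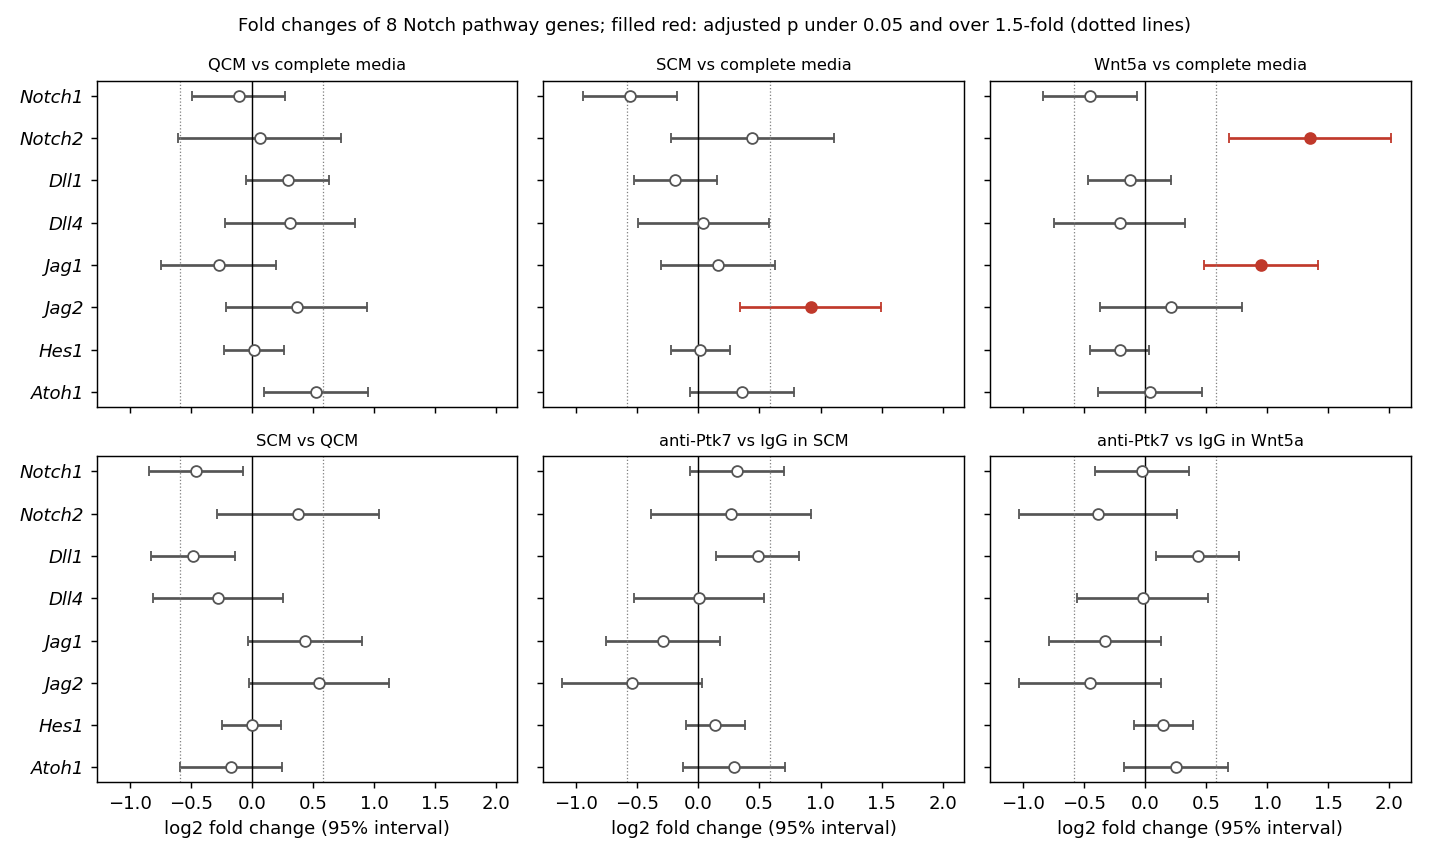
Log2 fold change with its 95% interval for 8 members (rows) in 6 comparisons (panels), from the edgeR fit over 36 libraries, with filled red points for calls and dotted lines at 1.5-fold. Calls are limited to Jag2 in SCM and to Notch2 and Jag1 in Wnt5a, both over complete media; Notch3, whose intervals are wider, and the undetected Hey1 are not drawn.

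The antibody comparisons ask whether blocking Ptk7 moved these genes within SCM or within Wnt5a media. No member was called for anti-Ptk7 against IgG in SCM by edgeR (1 at an unadjusted p under 0.05, none by DESeq2 or voom, beside 1.23% of all genes, 0.581% as higher and 0.645% as lower). None was called in Wnt5a (1 at an unadjusted p under 0.05, none by DESeq2 or voom, beside 0.884% of all genes). In both media the member at an unadjusted p under 0.05 was Dll1. It was between 14.8 and 38.8 CPM in SCM + IgG and between 32.4 and 57.5 CPM in SCM + anti-Ptk7 (median of 46.4), and between 28.4 and 42.8 CPM in Wnt5a + IgG and between 31.8 and 52.8 CPM in Wnt5a + anti-Ptk7 (median of 46.6). The groups overlapped in both media, with medians that were higher with the antibody. Dll1 was 1.40-fold higher with the antibody in SCM (1.10 to 1.77, adjusted p = 0.116) and 1.35-fold higher in Wnt5a (1.06 to 1.71, adjusted p = 0.183). With the replicate numbers as a block, the adjusted p was 0.0232 in SCM and 0.073 in Wnt5a, with both changes under the fold cutoff. Without the 3 libraries least like the others, the log2 fold change of Dll1 went from 0.48 to 0.32 in SCM and from 0.43 to 0.49 in Wnt5a.

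Jag2, which was high in SCM + IgG, was between 9.12 and 24.04 CPM in SCM + anti-Ptk7 (median of 14.9), at 0.686 times its level with IgG (0.462 to 1.02, adjusted p = 0.321, not called). In Wnt5a, Jag2 was at 0.73 times with the antibody (0.488 to 1.09, adjusted p = 0.494), and without Wnt5a + IgG replicate 1 its log2 fold change went from -0.45 to -0.23, and without Wnt5a + anti-Ptk7 replicate 3 to -0.74. Notch2 was between 9.41 and 23.7 CPM in SCM + anti-Ptk7 (median of 18.2). It was at 1.20 times its IgG level in SCM (0.765 to 1.90, adjusted p = 0.724) and at 0.766 times in Wnt5a (0.489 to 1.20, adjusted p = 0.636). In Wnt5a its log2 fold change of -0.38 became -0.23 without Wnt5a + IgG replicate 1 and -0.66 without Wnt5a + anti-Ptk7 replicate 1. Jag1 was at 0.819 times in SCM (0.593 to 1.13, adjusted p = 0.558) and at 0.797 times in Wnt5a (0.58 to 1.10, adjusted p = 0.548). The value in Wnt5a rested on Wnt5a + IgG replicate 1, without which the log2 fold change went from -0.33 to -0.02; without all 3 libraries least like the others it was -0.22. Hes1 was at 1.10 times in SCM and 1.11 times in Wnt5a, and Atoh1 at 1.22 and 1.19 times (adjusted p of 0.503 to 0.633). The antibody effect did not differ between Wnt5a and SCM for any member in the test of that difference by edgeR (adjusted p = 0.999 for all 9, none at an unadjusted p under 0.05 and none called by DESeq2 or voom, beside 0% of all genes). These intervals were wide: for Notch2 the difference in log2 fold change was -0.65 with an interval of -1.57 to 0.27. Among the markers, 3 of 7 enteroendocrine genes fell with the antibody in SCM and 2 of 7 in Wnt5a, and of 6 Paneth cell genes 0 were called lower in SCM and 1 in Wnt5a. The Paneth cell genes had median log2 fold changes of -0.37 in SCM and -0.43 in Wnt5a with the antibody, with 4 and 5 of the 6 at an unadjusted p under 0.05. Of 6 enterocyte genes, 1 fell in each medium, beside 0.645% of all genes called lower in SCM and 0.884% called in either direction in Wnt5a. Pdgfrb, a pericyte gene at a low level, was between 0 and 2.32 CPM in SCM + IgG and between 2.01 and 6.34 CPM in SCM + anti-Ptk7. This change was not called (log2 fold change of 1.88, unadjusted p under 0.05, edgeR). The other 4 pericyte and smooth muscle markers stayed under 0.5 CPM on average. The part of these cells in the antibody values was not tested.

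Over all 15 pairs of conditions, Jag1 was called in 5, Notch2 in 4, Jag2 in 2 and Atoh1 in 1, and no other member in any. Wnt5a + anti-Ptk7 was also higher than complete media in Notch2 (log2 fold change of 0.97, adjusted p = 0.0219) and in Jag1 (0.62, adjusted p = 0.0359), beside 14.5% of all genes called. The mean Notch2 level in Wnt5a + anti-Ptk7 was 20.4 CPM, and 16.9 CPM without replicate 1 (37.98 CPM), against 10.4 CPM in complete media. The mean Jag1 level there was 44.1 CPM, and 38.3 CPM without replicate 1 (73.1 CPM), against 28.6 CPM in complete media. This pair of conditions was not tested without that library. Against QCM, both Wnt5a groups were higher in both genes. The log2 fold changes were 1.29 for Notch2 and 1.22 for Jag1 in Wnt5a + IgG (9.34% of all genes called) and 0.90 and 0.89 in Wnt5a + anti-Ptk7 (14.7% of all genes called). Jag1 was also higher in Wnt5a + IgG than in SCM + anti-Ptk7 (1.07, adjusted p = 0.00279, 4.44% of all genes called). Jag2 was lower in Wnt5a + anti-Ptk7 than in SCM + IgG (-1.16, adjusted p = 0.00479, 5.76% of all genes called), and the Atoh1 call in SCM + anti-Ptk7 stood beside 5.86% of all genes. These pairs reuse the same libraries. When each member's 6 condition means were put in order, no pair of neighbours in that order passed an adjusted p of 0.05, the lowest being 0.167, for Jag1 between SCM + IgG and Wnt5a + anti-Ptk7.

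The promoters of Notch2 and Jag1 are shown because these members rose together in Wnt5a. Sequences are from RefSeq (GRCm38.p6), 5′ to 3′ on the strand of the gene, and are limited to the bases before the first annotated exon, with capitals for an N-box (CACNAG on either strand), the site bound by Hes repressors. The Notch2 stretch is chr3:98013288-98013526 on the plus strand, and the Jag1 stretch, which holds none of the motifs searched, is chr2:137116645-137116770 on the minus strand.
Notch2: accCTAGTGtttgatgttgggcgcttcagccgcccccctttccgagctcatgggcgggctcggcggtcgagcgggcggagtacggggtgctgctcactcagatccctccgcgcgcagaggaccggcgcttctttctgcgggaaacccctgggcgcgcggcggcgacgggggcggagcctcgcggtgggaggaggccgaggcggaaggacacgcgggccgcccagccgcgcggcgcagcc
Jag1: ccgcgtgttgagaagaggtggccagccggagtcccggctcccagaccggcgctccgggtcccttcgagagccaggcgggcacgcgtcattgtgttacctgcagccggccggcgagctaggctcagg

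Windows of 250 bases before the start were available for 8 of the 10 members, 9 windows in all. Annotated exons of the gene begin inside 5 of these 9 windows, and only 126 bases of the Jag1 window, 97 of one Dll1 window and 0 of the Jag2 window lie before the first exon. The core of the Rbpj site, TGGGAA on either strand, was in none of these 9 windows and in 21.6% of all 32851 windows. The N-box was in 4 of the 9 and in 36.7% of all windows, and an E-box read by factors such as Atoh1 (CAGCTG) in 2 of the 9, those of Jag1, where it does not lie within the stretch printed above, and Dll1, and in 13% of all. The starts of the Dll1 window with the E-box and of the Notch3 window, which holds N-boxes, were not found in the annotated transcripts of these genes. A Tead site (CATTCC) was in the Notch1 window alone (12.6% of all windows), and an AP-1 site (TGACTCA) in none (4.46% of all windows). The 5 motifs were searched on both strands.

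The wider pathway was described with 52 further genes for receptors and ligands, ligand processing, receptor cleavage, glycosylation, the nuclear complex, turnover and targets, of which 44 were tested. In QCM none was called by edgeR, with 3 at an unadjusted p under 0.05 and none by DESeq2 or voom. In SCM + IgG over complete media, 1 of 44 fell, the gamma-secretase subunit Psen2 (log2 fold change of -0.61 ± 0.16, adjusted p = 0.0105), from 16.7 to 35.3 CPM in complete media to 15.6 to 20.3 CPM, and none rose, beside 6.08% of all genes called. In Wnt5a + IgG, 2 rose and none fell by edgeR and DESeq2, beside 10.2% of all genes, while voom called Furin as higher and Mfng as lower, and not Eogt. Furin, the protease that cuts the Notch receptor on its way to the surface, rose from between 88.1 and 129 CPM to between 148 and 323 CPM, with no overlap (log2 fold change of 0.87 ± 0.17, adjusted p = 0.000227). For 11.7% of all genes tested these 2 groups likewise did not overlap. Eogt, which adds a sugar to the extracellular repeats of the receptor, rose from between 8.42 and 20.96 CPM to between 17.1 and 30.7 CPM (0.63 ± 0.17, adjusted p = 0.00773). Adam10 was 1.33-fold higher, at 239 ± 34.3 against 180.3 ± 20.03 CPM (SD, n = 6), with an adjusted p of 0.0266 (edgeR) and a change under the cutoff. The medians of the 44 genes were 0.01, -0.02 and 0.17 on the log2 scale in QCM, SCM + IgG and Wnt5a + IgG, beside 0.02, 0.01 and 0.01 over all genes.

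With anti-Ptk7 in SCM, 1 of the 44 rose, Nrarp, a Notch target that feeds back on the receptor's intracellular domain, beside 1.23% of all genes called. It was between 25.1 and 33.9 CPM in SCM + IgG and between 33.7 and 54.8 CPM in SCM + anti-Ptk7 (median of 50.9), with the 2 groups just touching. The log2 fold change was 0.69 ± 0.15 (adjusted p = 0.00927, edgeR), and DESeq2 and voom called it too. In Wnt5a, Nrarp was between 24.9 and 35.96 CPM with IgG and between 30.04 and 56.7 CPM with the antibody (log2 fold change of 0.46 ± 0.15, adjusted p = 0.0975, not called). No other gene of the list was called with anti-Ptk7 in either medium (7 at an unadjusted p under 0.05 in Wnt5a, none called by DESeq2 or voom), nor in SCM over QCM (4 at an unadjusted p under 0.05, none by DESeq2 or voom). In the joint test, 18 of 44 passed, a share of the list close to the 39.5% of all genes.

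Among 14 transcription factors of the secretory lineages downstream of or beside Atoh1, all of which were tested, 1 fell in SCM + IgG and 3 fell in Wnt5a + IgG over complete media by edgeR, and none rose, beside 1.12% and 1.88% of all genes called lower. Neurog3, which specifies enteroendocrine cells, was between 15.2 and 24.4 CPM in complete media, between 6.97 and 15.6 CPM in SCM + IgG and between 3.93 and 12.6 CPM in Wnt5a + IgG. It fell in SCM + IgG (log2 fold change of -0.83 ± 0.20, adjusted p = 0.00543) and in Wnt5a + IgG (-1.33 ± 0.20, adjusted p = 1.38e-05), where no library overlapped complete media. Such a lack of overlap between Wnt5a + IgG and complete media was seen in 11.7% of all genes tested. Insm1, an enteroendocrine factor, fell in Wnt5a + IgG (-1.06 ± 0.26, adjusted p = 0.00259), from between 8.14 and 15.6 CPM to between 3.58 and 7.97 CPM. Bhlha15, a factor of mature secretory cells, also fell there (-0.82 ± 0.26, adjusted p = 0.019), and DESeq2 and voom called it in SCM + IgG as well. In Wnt5a + IgG, voom also called Neurod1, an enteroendocrine factor, as lower (-0.51 ± 0.21, adjusted p = 0.0729 by edgeR). Thus, while these 3 factors fell in Wnt5a + IgG, Atoh1 itself was at 1.03 times complete media. Of 7 markers of enteroendocrine cells, none was called in SCM + IgG or Wnt5a + IgG by edgeR (2 and 1 at an unadjusted p under 0.05), and 5 and 7 of them were above 0, with median log2 fold changes of 0.17 and 0.22. Gfi1 and Spdef, which act in goblet and Paneth cells, were not called (log2 fold changes of -0.90 ± 0.59 and -0.38 ± 0.22 in Wnt5a + IgG). With the antibody none of the 14 was called in either medium by edgeR, DESeq2 or voom, with none at an unadjusted p under 0.05 in SCM and 2 in Wnt5a. Neurog3 with the antibody was at a log2 fold change of 0.40 ± 0.20 in SCM (adjusted p = 0.299) and 0.28 ± 0.20 in Wnt5a (adjusted p = 0.574).

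**Figure D5:**
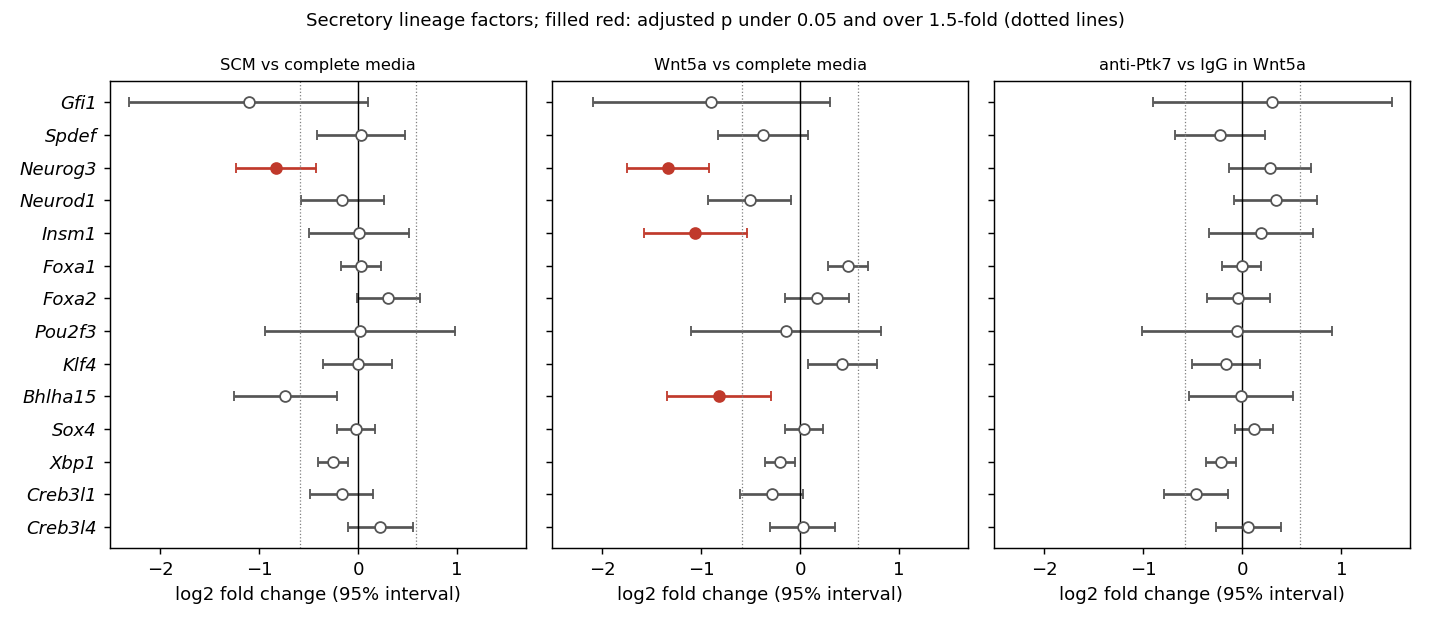
Log2 fold change with its 95% interval for 14 secretory lineage factors (rows) in 3 comparisons (panels), from the edgeR fit over 36 libraries, with filled red points for calls and dotted lines at 1.5-fold. Neurog3 is called in SCM and Neurog3, Insm1 and Bhlha15 in Wnt5a, all lower, and none with anti-Ptk7 in Wnt5a.

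For the members that passed the joint test, the genes with the most similar pattern over the 36 libraries were found by Pearson correlation of log2 CPM, as a description across libraries that share conditions. Notch2 was most like Akap13 (r = 0.789), Apob (0.788) and Dsp (0.771), and the genes most like Jag1 included Cipc (0.854) and Adam9 (0.836). Dll1 was most like its overlapping antisense gene A930024N18Rik (0.857), then Pla2g10 (0.79) and Rtn4rl1 (0.752). Jag2 had the weakest matches, Gm11973 (0.643), Tada2b (0.64) and Znrf2 (0.64).

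Members were also correlated with each other within conditions, on each library's deviation from its condition mean. Among the 36 pairs of the 9 detected members, none passed after adjustment (100000 permutations of libraries). The strongest relation was between Notch1 and Notch2 over 36 libraries (Pearson's r = 0.517, permutation p = 0.0015, adjusted p = 0.054; Spearman's rho = 0.503, permutation p = 0.0041, adjusted p = 0.148). Without the 2 libraries farthest from the median of Notch1, r was 0.468.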

How the data were processed

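RNA was made into libraries from 2 ng of total RNA with SMART-Seq v4 and from 150 pg of cDNA with Nextera XT. According to the study's methods and the labels, reads were aligned by the authors with GSNAP to mm10 within HTSeqGenie, and the deposited values are raw counts of reads within coding sequences, 1 file per library. The annotation version and use of strand were not given in the sources used here. Symbols and lengths came from GENCODE vM21 (GRCm38), which left 147 of 52636 genes without a symbol. A table of the whole series was not used.

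Counts were analysed with edgeR 4.0.16 (R 4.3.3): filterByExpr (15497 genes), TMM scaling and a quasi-likelihood fit of the 6 condition means, without a block. The 8 tests were each medium against complete media, SCM against QCM, the antibody within SCM and within Wnt5a, the difference of these antibody effects and the joint test. Log2 CPM used a prior count of 2. DESeq2 1.42.0 and limma 3.58.1 were alternatives, beside other scalings, filters, thresholds, a replicate block and leaving out each library. Members, lists and tests were chosen with earlier results of these data known. Of the other pathway and secretory genes, at most 5 called genes per comparison, by size of change at a mean of at least 0.5 CPM, and the 3 genes most like each member called in the joint test were named, except 1 that is not reported here; Adam10, Gfi1 and Spdef were added after their values were seen. Replicates of a condition differed by more than counting noise in all 90 pairs (chi-square per gene of 7.56 to 88.8). The study's statistics section takes each value as a mouse unless stated otherwise, but labels do not say whether these replicates are separate cultures or mice; if they are not, p-values measure only the spread between these libraries. The scripts were tested on simulated data.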

Additional observations from a re-analysis of the deposited data

Results flagged for a closer look

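In 6 of the 54 groups of 6 libraries examined (9 members in 6 conditions), 1 library stood apart from the other 5 by Dixon's criterion, which chance meets in about 1 of 20 groups. Dll1 was at 14.8 CPM in SCM + IgG replicate 1, with the other 5 libraries between 31.2 and 38.8 CPM, and at 31.8 CPM in Wnt5a + anti-Ptk7 replicate 1. Jag1 was at 109 CPM in Wnt5a + IgG replicate 1, with the next library at 49.1 CPM. Jag2 was at 26.3 CPM in Wnt5a + IgG replicate 1 and at 20.6 CPM in Wnt5a + anti-Ptk7 replicate 3. Atoh1 was at 22.1 CPM in QCM + IgG replicate 2. Of these 6 values, 4 belong to the 3 libraries that were least like the others over all genes.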

How the results depend on the processing

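The calls of Notch2 and Jag1 in Wnt5a over complete media held in all alternatives but the glmTreat test against a fold change of 1.5, which called 0 members (adjusted p of 0.0791 for Notch2 and 0.303 for Jag1); leaving out single libraries gave 2 calls throughout. The single call in SCM over complete media became 0 with glmTreat and 0 without the 3 libraries least like the others (an alternative chosen after seeing the data), and 2 with scaling by library size alone and 2 with no fold-change cutoff, in both cases Jag2 with Notch1. Leaving out single libraries gave 0 to 2 calls, with 0 without complete media + IgG replicate 4 or SCM + IgG replicate 1 and 2 without complete media + IgG replicate 6. With voom and limma the count stayed at 1, but the gene was Notch1 in place of Jag2. Over the alternatives the adjusted p of Jag2 ranged from 0.00335 to 0.798 and its log2 fold change from 0.66 to 1.10. The joint test called 3 to 6 members, with Notch2, Dll1 and Jag1 in every alternative; with no filter it added Hey1, which rests on 32 counts. In the other 5 comparisons 0 members were called in every alternative run. Of 1665 fold changes of members under alternatives, none was reversed; 131 changed sign but were called in neither setting. The cause of these changes was not tested, and fewer libraries enter the fits that leave some out.

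Replicate numbers were not taken to pair the libraries, because labels do not tie a number to a mouse. Same-numbered libraries of different conditions were nevertheless more alike on average (mean correlation of 0.092, against -0.018 for other numbers). They correlated at over 0.1 in 34 of 90 pairs, and 16 of 36 libraries were most like one of their own number. Whether the numbers mark a pairing was not tested, and the main fit, without a block, takes none into account. With the replicate block, 0 members were called in QCM, 1 in SCM, 2 in Wnt5a, 0 with the antibody in either medium and 6 in the joint test, and no call was lost. Calls over all genes went from 942 to 1133 in SCM over complete media and from 1576 to 1706 in Wnt5a, from 58 to 178 in QCM, from 140 to 496 in SCM over QCM, from 190 to 399 for the antibody in SCM and from 137 to 255 for the antibody in Wnt5a.

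Low counts, at most 43 per library for Notch3 and 10 for Hey1, limited these genes, whose intervals or zero counts do not bound a change of 1.5-fold.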
